A study of Arabidopsis thaliana with 9 samples.

Results

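In Arabidopsis thaliana seedlings, 175 of 22746 probe sets (0.769%) lay in a graded order, with untreated seedlings between those given a nitric oxide (NO) donor and those given an NO scavenger. The donor was sodium nitroprusside (SNP) and the scavenger was cPTIO. A probe set, the group of probes that reads 1 transcript or a few similar ones, was chosen when the 3 values of each group did not overlap with those of the next. It also had to have SNP and cPTIO means at least 0.5 apart on the log2 scale. In 91 sets (0.4%) the order ran SNP above control above cPTIO, and in 84 (0.369%) it ran the opposite way. The members were chosen by their values on all 9 arrays, which also describe them here, so the differences below are descriptions and none is offered as a test.

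The SNP group was 3 arrays from ecotype Columbia-0 seedlings that shared a closed outer dish with an open dish of 100 uM SNP. Exposure was through the air, to what that open dish gave off. The cPTIO group was 3 arrays from seedlings with 1 mM cPTIO placed in their own dishes, also inside a closed outer dish. The control group was 3 arrays from untreated seedlings, and the sources used here do not say whether these were enclosed too. All seedlings were collected at 8 days, after 5 days of treatment that began at day 3. Each array held RNA of whole seedlings, so fewer cells of a type and less RNA per cell cannot be told apart. The titles call the 3 arrays of a group biological replicates. The labels do not say whether they came from separate exposures, and the agents differed in route and dose as well as in their action on NO.

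Nitric oxide is a small gaseous signal that plants make and remove continuously. It acts in part by modifying cysteine residues and metal centres of proteins, and it is known in seedlings for roles in root growth, light responses and stress. SNP is an iron-cyanide complex that releases NO, and cPTIO is a radical that oxidises it. A donor and a scavenger are used to move the NO level in opposite directions, so transcripts with untreated plants in the middle were collected.

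Control was the least frequent middle group. Among probe sets whose outer means were at least 0.5 apart, 281 were strictly ordered with SNP in the middle, 227 with cPTIO in the middle and 175 with control in the middle. Without the minimum difference the numbers were 370, 281 and 219. Among the single orders the most frequent was control above SNP above cPTIO, with 206 probe sets, and the least frequent was cPTIO above SNP above control, with 75. None of the 64 control probe sets of the array lay in either graded order. The bar chart of the strict orders shows these counts.

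**Figure D1:**
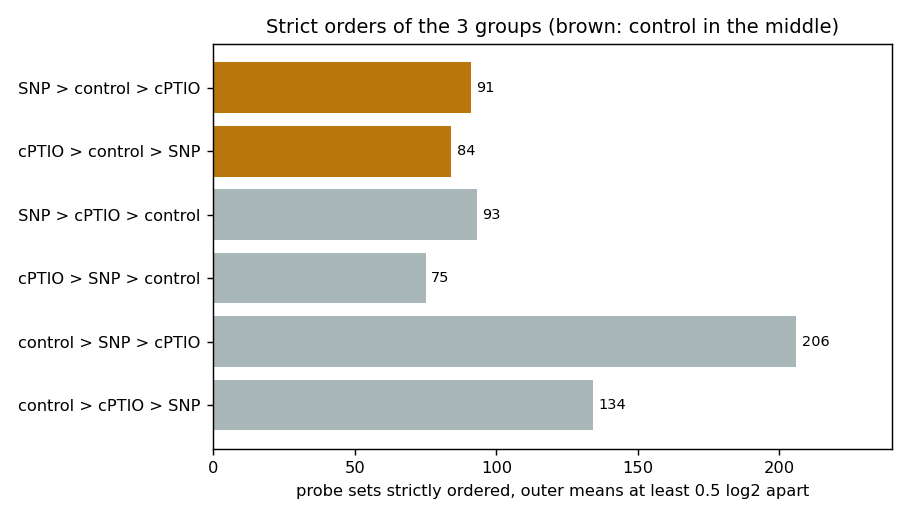
Number of probe sets (horizontal axis) in each strict order of the 3 groups with outer means at least 0.5 log2 apart. Both orders with control in the middle, in brown, held 91 and 84 sets, against 206 for control above SNP above cPTIO and 75 for cPTIO above SNP above control.

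The differences were mostly small in the set that was higher in SNP and larger in the set that was lower. The median SNP minus cPTIO difference was 0.82 (1.77-fold) among the 91 higher members and 1.07 in size (2.11-fold) among the 84 lower members. Over all probe sets the median size was 0.14, and 12.3% were at least 0.5 apart. At least 1 log2 separated SNP from cPTIO in 28 higher and 51 lower members, and at least 2 log2 in 4 and 14. Among the higher members AT4G18300 was nearest the minimum, at 0.506. Among the lower ones it was a set that matches 2 genes, at -0.517. AT5G17380, a 2-hydroxyacyl-CoA lyase, followed at -0.523. The nearest ordered sets left outside stood at 0.487 and at -0.481, the second being SP1L5.

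Among the members, the step from control was about as large for the scavenger as for the donor. The rule treats both agents alike and asks each for a step away from every control array. It therefore tends to leave out genes moved by 1 agent alone, so near-even shares are no finding about the agents. Among the higher members the median step was 0.40 for SNP and 0.43 for cPTIO, and SNP made the larger step in 41 of 91. Among the lower members the median sizes were 0.54 and 0.52, and SNP made the larger step in 45 of 84. The share of the whole range taken by the SNP step had a median of 48.8% among the higher members (range 6.14% to 83.0%). It was 51.3% among the lower members (range 21.4% to 83.4%). SNP made the larger step in 12 of the 20 widest higher members and in 29 of the other 71. Among the lower members it did so in 13 of the 20 widest and in 32 of the other 64. Both steps share the same 3 control arrays, so they are given side by side and not correlated.

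**Figure D2:**
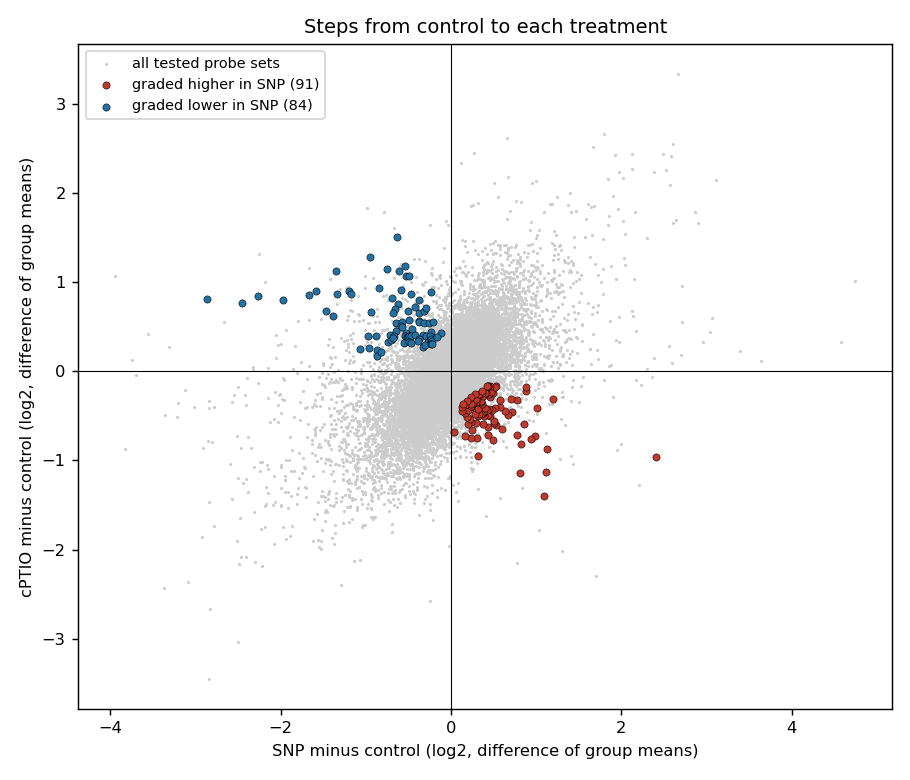
Difference of group means from control, SNP on the horizontal and cPTIO on the vertical axis, both log2; each point is a probe set, and both axes share the same 3 control arrays. The 91 members higher in SNP lie at the lower right and the 84 lower in SNP at the upper left, as the choice of members requires.

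Most of the orders rest on a gap of less than 0.2 between arrays. The narrower of the gaps on either side of control had a median of 0.07 among the higher members and reached 0.50 at most. Among the lower members the median was 0.10 and the highest 0.72. Both gaps were at least 0.2 in 15 higher and 20 lower members. SNP replicate 3 was the SNP array nearest to control in 61 of the 91 higher members, and cPTIO replicate 2 was the nearest cPTIO array in 51. Among the 84 lower members, control replicate 1 was the control array nearest to cPTIO in 50 and control replicate 2 the one nearest to SNP in 48.

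The array that a count rests on most differed between the directions. Without SNP replicate 3 the order rule chose 198 higher probe sets, of which 45.5% were ordered on all 9 arrays. Without cPTIO replicate 3, whose spike-in BioB stood at 6.25 against 7.08 and 7.11 on the other cPTIO arrays, it chose 153 higher and 192 lower sets. Without control replicate 1 it chose 143 and 169. Without cPTIO replicate 2 it chose 144 higher sets, and without SNP replicate 3 it chose 157 lower ones. Fewer arrays make the order easier to meet, so these counts rise by construction.

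The members were also read against limma, a linear model that moderates each probe set's variance, fitted to all 9 arrays. An adjusted p under 0.05 (Benjamini-Hochberg) counted as a call. Between SNP and cPTIO it called 78 of the 91 higher members, where 1.68% of all probe sets were called higher, and 78 of the 84 lower ones, where 1.59% were called lower. Between SNP and control it called 18 higher members, against 2.57% of all sets, and 32 lower ones, against 3.62%. Between cPTIO and control it called 18 members lower in cPTIO, where 4.27% of all sets were lower, and 22 higher in cPTIO, where 2.32% were. With the replicate number as a block and only the SNP and cPTIO arrays in the fit, the calls between SNP and cPTIO were 56 members instead of 156. Without the block the fit to only these arrays called 74, and the block over all 9 arrays called 149. The rule used all 3 contrasts, so nothing is read from these counts.

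In the fit to all arrays without the block, 4 higher and 8 lower members were called in all 3 comparisons. The 4 were AT1G75900, scpl29, AT4G15830 and GPDHC1. Those lower members that have a name were AT5G62340, AT3G51330, MSRB9, AT5G23830 and AT3G05920. A further 13 higher and 6 lower members were called in none of the 3 comparisons. The share over all probe sets is not given for these counts, so they are descriptions of the members only. Whether they are high or low beside the whole array cannot be read from them.

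Measures of the arrays and tissues that move with the groups were as follows. The 3-prime minus 5-prime difference of the actin and GAPDH control probe sets, a sign of RNA integrity, averaged 1.54 ± 0.10 in SNP, 1.37 ± 0.03 in cPTIO and 1.46 ± 0.12 in control (SD, n = 3). Its means ran in the graded order while its arrays overlapped, and its part in the results was not tested. The root hair expansins EXPA7 and EXPA18, the 2 of 7 root markers that are named here, were highest in control. EXPA7 averaged 5.12 in SNP, 5.61 in cPTIO and 6.10 in control, and EXPA18 averaged 5.15, 5.65 and 6.44 in the same groups. The single shoot marker named here, RCA, averaged 12.90 in SNP, 13.16 in cPTIO and 13.08 in control, so its means ran in the order of the members lower in SNP. The single seed marker, the isocitrate lyase ICL, averaged 11.10 in SNP, 8.63 in cPTIO and 8.03 in control. No marker measured here was a member, and their part in the results was not tested.

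Of the members, 54 higher and 43 lower ones matched 1 gene each in GEO's platform annotation, updated through RefSeq (TAIR10.1). Another 2 higher and 3 lower sets matched several genes, and 35 and 38 are unnamed here. Over the whole array 59.1% of probe sets matched 1 gene. Roles given below are general background on the gene or its family.

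An anthocyanin enzyme had the widest difference among the named higher members. AT4G14090 is the anthocyanin glucosyltransferase UGT75C1, which adds a sugar to the red and purple pigments of stressed seedlings. Its log2 values were 8.53, 8.95 and 6.94 in SNP, 4.98, 4.82 and 4.50 in cPTIO and 5.53, 6.22 and 5.43 in control. SNP replicate 3 stood well below the other SNP arrays and still above every control array. The SNP mean was 3.37 above the cPTIO mean (10.4-fold), with a SNP step of 2.41 and a cPTIO step of -0.96.

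Other genes of the same pathway had group means in the same order but overlapping arrays. The flavonoid and anthocyanin list, chosen with earlier results of these data known, held 13 genes, of which 4 are named on the array. All 4 had means in the order SNP, control, cPTIO, as 12.7% of all probe sets did. DFR, the reductase that leads into anthocyanins, had 9.45, 9.62 and 7.95 in SNP, 5.19, 5.37 and 4.47 in cPTIO and 5.94, 8.25 and 7.73 in control. SNP replicate 3 lay below control replicate 2, so DFR was not chosen. Its SNP mean was 4.00 above the cPTIO mean, more than in any member (limma, adjusted p = 0.0173, and 0.0224 with the replicate block and only these groups in the fit). The glycosyltransferase UF3GT was 2.81 higher in SNP than in cPTIO (limma, adjusted p = 0.0441, and 0.07 in that blocked fit). With the block over all 9 arrays DFR and UF3GT were both called (limma, adjusted p = 0.0239 and 0.0437). The acyltransferase 5MAT was 1.75 higher and was not called (limma, adjusted p = 0.0778). In all 3 of these genes and in AT4G14090 the lowest SNP array was replicate 3. The list's median difference was 3.09, or 2.81 without the member AT4G14090, against -0.02 over all probe sets. Between SNP and cPTIO, 3 of the 4 were called higher and none lower, and 2 of 3 without AT4G14090, against 1.68% higher and 1.59% lower over all sets.

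The second widest named difference was in AT2G43530, which encodes a small cysteine-rich peptide of the defensin type. It had 7.62, 7.55 and 6.73 in SNP, 4.91, 4.96 and 4.56 in cPTIO and 6.01, 6.68 and 5.94 in control. Control replicate 2 came within 0.047 of SNP replicate 3, while the cPTIO arrays lay well below both groups. The difference was 2.49, and here the SNP step of 1.09 was smaller than the cPTIO step of -1.40.

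GSTU25, a tau-class glutathione transferase that joins glutathione to reactive compounds, was the sole gene of the 11 in the glutathione transferase list that is named on the array. It had 8.00, 8.96 and 9.09 in SNP, 6.53, 7.42 and 6.27 in cPTIO and 7.86, 7.91 and 7.86 in control. The control arrays were nearly identical while both treated groups spread widely. SNP replicate 1 was 0.095 above the highest control array, and the SNP minus cPTIO difference was 1.95 (3.85-fold).

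**Figure D3:**
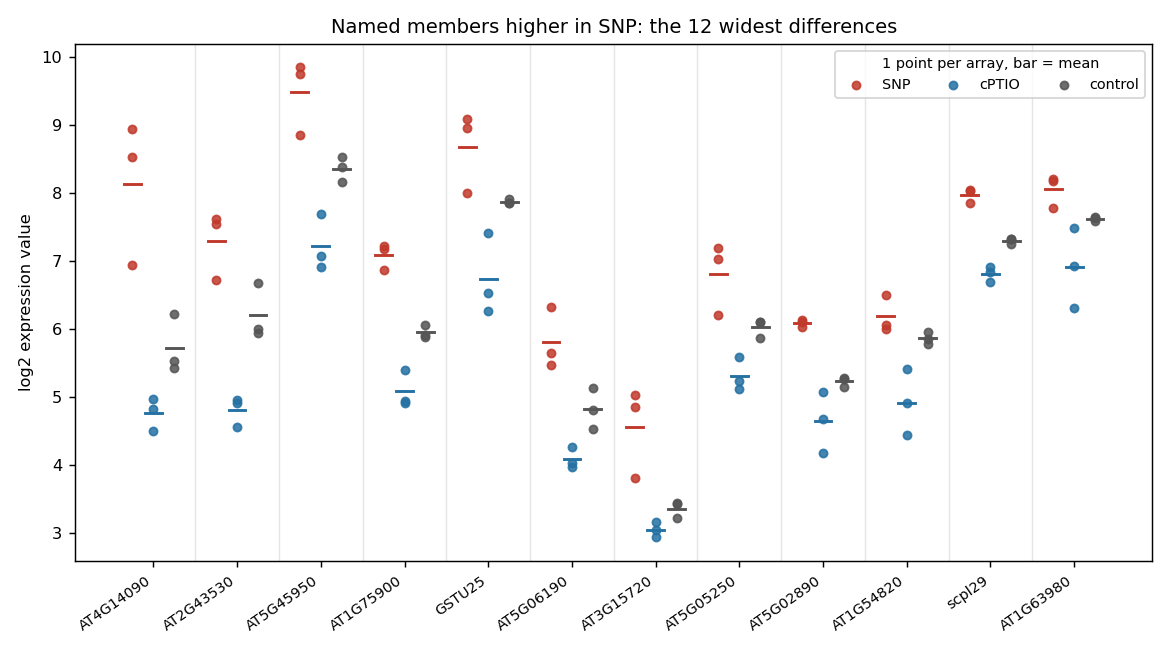
Log2 expression value (vertical axis) on each array of the 12 named members higher in SNP with the widest SNP minus cPTIO difference; points are arrays, bars are group means, and within each gene SNP is left, cPTIO in the middle and control right. No SNP point overlaps with control, and SNP replicate 3 is the lowest SNP point of AT4G14090 at 6.94.

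GDSL esterases and lipases, secreted enzymes that cut or join ester bonds in cuticle, storage and wall lipids, were the largest family found among the higher members. It was picked out after the values had been seen. AT5G45950 had 9.85, 9.75 and 8.86 in SNP, 7.08, 7.69 and 6.92 in cPTIO and 8.38, 8.54 and 8.17 in control. The control arrays sat midway, with a SNP step of 1.12 and a cPTIO step of -1.13. AT1G75900 (EXL3) had 7.18, 7.22 and 6.87 in SNP, 4.95, 5.40 and 4.92 in cPTIO and 5.92, 6.06 and 5.89 in control. Its groups were among the best separated, and SNP was 2.00 above cPTIO (4.00-fold). AT1G75880 (EXL1), which has 1 protein-coding gene between itself and AT1G75900 on the chromosome, was dimmer. It averaged 4.11 ± 0.09 in SNP, 3.35 ± 0.17 in cPTIO and 3.83 ± 0.09 in control (SD, n = 3). These means all lay below every array median, so its order and difference are not shown to lie above background. The probe set between AT1G75880 and AT1G75900 in position, for AT1G75890, averaged 3.01 in SNP, 2.96 in cPTIO and 3.00 in control. AT1G29660 was 0.89 and AT1G28580 0.68 higher in SNP than in cPTIO, and both were bright in every group.

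Beyond the members, the family ran both ways. Of 95 GDSL genes listed, 67 are named on the array, and 5 of them were higher members and none a lower one. Means in the order SNP, control, cPTIO were found in 23 of the 67 and in 18 of the 62 that were not members, against 12.7% of all probe sets. The reverse order of means was found in 9, against 16.7% of all sets. Their median SNP minus cPTIO difference was 0.03, against -0.02 over all probe sets. Many of the listed genes had all 3 group means below every array median. AT1G06990, for example, averaged 2.85 in SNP, 2.90 in cPTIO and 2.86 in control. The order and difference of such genes are not shown to lie above background. Between SNP and cPTIO limma called 12 higher and 2 lower, and with the members left out 7 and 2 of 62, against 1.68% higher and 1.59% lower over all sets. In the blocked fit of only the SNP and cPTIO arrays fewer were called. AT1G28570, AT1G75900, AT3G14220, AT3G16370 and AT5G45950 were called higher and AT1G74460 lower. The members AT1G28580, AT1G29660 and AT1G75880 were not called in it (limma, adjusted p = 0.0657, 0.0764 and 0.0817). With the block over all 9 arrays these members were called (limma, adjusted p = 0.022, 0.0265 and 0.0291). Against control, 8 were called higher and 3 lower in SNP (2.57% and 3.62% of all sets), and 1 higher and 2 lower in cPTIO (2.32% and 4.27%). The list was written after the members were known, so these counts are a description. AT3G16370, called but not a member, averaged 11.80 in SNP, 10.59 in cPTIO and 10.71 in control, so that its cPTIO arrays overlapped with control. AT1G74460 ran the opposite way, with 4.41 in SNP, 6.60 in cPTIO and 6.56 in control. AT2G04570 met the order with a difference of 0.40 and fell short of the minimum.

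**Figure D4:**
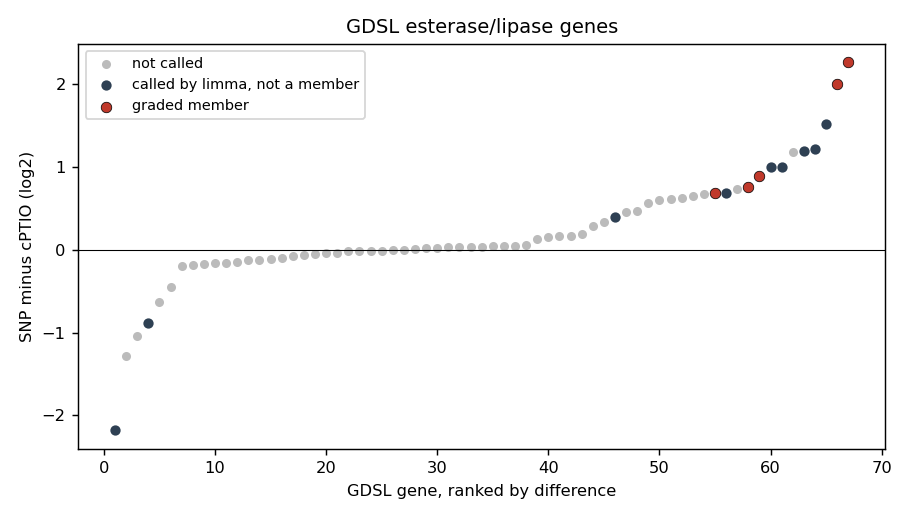
SNP minus cPTIO difference of means (vertical axis, log2) for 67 GDSL esterase and lipase genes ranked by it (horizontal axis); red points are graded members, dark points other genes called by limma, grey points genes not called. The 5 members lie between 0.68 and 2.26, and most of the family lies near the median of 0.03. Many of the genes near that median were dim in every group.

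Of 3 pectin-related members, picked out after the values had been seen, AT3G15720 was higher in SNP, and AT5G62340 and AT5G04970 were lower. AT3G15720, a pectin-degrading type of enzyme, had 5.03, 4.85 and 3.81 in SNP, 3.16, 2.94 and 3.05 in cPTIO and 3.44, 3.43 and 3.22 in control. Its cPTIO and control arrays were all below the array medians of 4.47 to 4.60, and SNP replicate 3 was too. AT5G02890, an acyltransferase of the HXXXD type, averaged 6.09 ± 0.06 in SNP, 4.64 ± 0.44 in cPTIO and 5.23 ± 0.08 in control (SD, n = 3). The serine carboxypeptidase-like gene scpl29 had 8.05, 8.03 and 7.85 in SNP, 6.84, 6.92 and 6.69 in cPTIO and 7.33, 7.25 and 7.33 in control. All of its groups were tight and clearly apart, with a difference of 1.16.

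Of the remaining named members with wide differences, AT5G06190 was 1.72, AT5G05250 1.49, AT1G54820 1.27 and AT1G63980 1.15 higher in SNP than in cPTIO. AT1G54820 and AT1G63980 moved mainly in cPTIO, with cPTIO steps of -0.95 and -0.71. In AT1G63980 the cPTIO arrays ran from 6.31 to 7.49, close to the lowest control array at 7.59. The widest higher member without a name had means of 9.52 in SNP, 7.82 in cPTIO and 8.58 in control.

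The next members, chosen after their values had been seen, are enzymes of redox metabolism and had smaller differences. GPDHC1, a cytosolic glycerol-3-phosphate dehydrogenase that links glycolysis to lipid synthesis and redox balance, had 7.23, 7.29 and 7.36 in SNP, 6.08, 6.49 and 6.04 in cPTIO and 6.69, 6.83 and 6.83 in control. Its arrays formed 3 separate bands, 1.1 apart at the ends. NADP-dependent isocitrate dehydrogenases make NADPH. ICDH, the peroxisomal form, was 0.73 and AT5G14590 was 0.61 higher in SNP than in cPTIO, whereas AT1G65930 was no member and had a difference of -0.24. The oxidoreductase NQR was 0.96 higher, and the dioxygenases AT4G16770 and AT3G19000 were 1.02 and 0.70 higher.

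Single members of other families are given next, with no count of their families. The pentatricopeptide repeat proteins AT4G02820, AT4G30825 and AT3G14330, a class that binds organelle transcripts, were 0.97, 0.79 and 0.85 higher in SNP than in cPTIO. AT4G30825 stands next but 1 to scpl29 on the chromosome. The ESCRT-related gene VPS60.2 was 0.83 and the autophagy gene ATG8G 0.63 higher. The Sec14-type lipid carriers AT1G30690 and AT4G39170 were 0.54 and 0.53 higher, near the minimum. AT3G22290 was 0.54 higher on the member set, but a second probe set of that gene differed by 0.14.

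Among the members lower in SNP, the widest set matches 2 genes and is not named. It had 5.53, 6.61 and 5.73 in SNP, 9.51, 9.54 and 9.81 in cPTIO and 9.42, 8.49 and 8.53 in control. Control replicate 1 lay 0.091 below the lowest cPTIO array, so the step from control to cPTIO was narrow beside a SNP difference of -3.67 from cPTIO.

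Lipid transfer proteins anchored to the outer face of the plasma membrane followed. These carry waxes and related lipids towards the cell surface. AT2G48130 had 4.55, 4.50 and 3.76 in SNP, 7.86, 7.42 and 7.19 in cPTIO and 7.14, 6.51 and 6.54 in control. AT3G22620 had 6.49, 6.67 and 5.70 in SNP, 9.09, 8.75 and 8.47 in cPTIO and 8.20, 7.61 and 7.81 in control. In both genes SNP replicate 3 was the lowest SNP array, and control lay nearer to cPTIO than to SNP. The differences of the listed values were -3.22 and -2.48, with SNP steps of -2.46 and -1.59 and cPTIO steps of 0.76 and 0.90. The SNP mean of AT2G48130, 4.27, lay below every array median and is not shown to be above background, so its difference and SNP step describe the listed values only.

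Wall proteins and secreted proteases were the other widest named members. AT3G16670, of the Ole e 1 pollen protein type, had 5.27, 5.01 and 5.87 in SNP, 8.60, 8.53 and 8.34 in cPTIO and 7.97, 7.25 and 7.73 in control. AT4G38080, a hydroxyproline-rich glycoprotein, had 4.73, 5.44 and 4.70 in SNP, 7.65, 7.55 and 7.98 in cPTIO and 7.45, 6.47 and 6.85 in control. Both were far lower in SNP, and control replicate 1 was the control array nearest to cPTIO in each. SBT4.12, a subtilase, had 5.10, 4.97 and 5.25 in SNP, 7.81, 7.86 and 7.19 in cPTIO and 7.06, 6.42 and 6.84 in control. Its difference was -2.52, against -3.11 for AT3G16670 and -2.77 for AT4G38080.

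AT5G62340, of the pectin methylesterase inhibitor type, and AT3G51330, an aspartyl protease, were dim in SNP. AT5G62340 had 3.57, 3.75 and 3.39 in SNP, 5.91, 5.61 and 5.62 in cPTIO and 5.21, 4.94 and 4.96 in control. AT3G51330 had 3.40, 3.25 and 3.38 in SNP, 5.52, 5.31 and 5.51 in cPTIO and 4.53, 4.29 and 4.83 in control. Their SNP values lay below every array median and are not shown to be above background, so no fold is given. On the listed values, which set no bound on the RNA, SNP lay below cPTIO in every array of both genes.

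**Figure D5:**
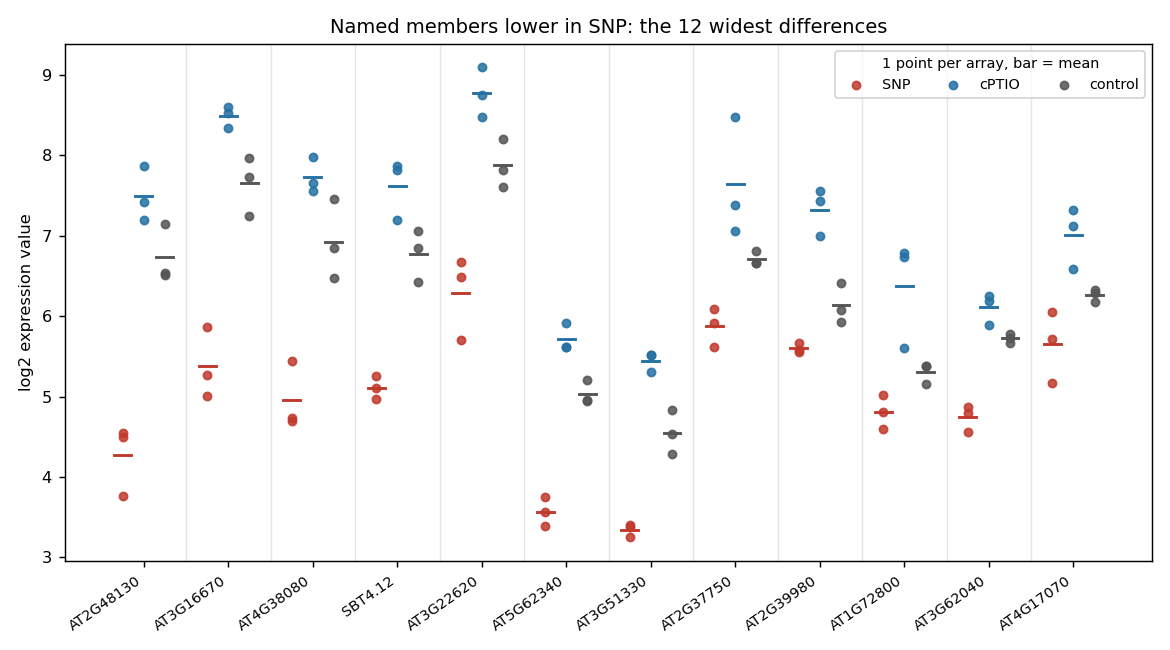
Log2 expression value (vertical axis) on each array of the 12 named members lower in SNP with the widest difference; points are arrays, bars are group means, and within each gene SNP is left, cPTIO in the middle and control right. The SNP points of AT5G62340 and AT3G51330 lie between 3.25 and 3.75, below every array median.

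Among the other wide lower members, either agent could make the larger step. AT2G39980, an acyltransferase of the same HXXXD type as the higher member AT5G02890, had 5.67, 5.55 and 5.58 in SNP, 7.43, 6.99 and 7.55 in cPTIO and 6.41, 6.08 and 5.92 in control. Its SNP step was -0.54 and its cPTIO step 1.18. AT1G72800 had a SNP step of -0.49 and a cPTIO step of 1.07, and AT2G37750 had -0.84 and 0.93. In both of these the cPTIO arrays were spread, with SDs of 0.67 and 0.74. By contrast, AT3G62040, of a haloacid dehalogenase-type hydrolase family, moved mainly in SNP, with a SNP step of -0.98 and a cPTIO step of 0.39. AT4G17070 had steps of -0.62 and 0.75.

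Members with roles in sulfur or redox chemistry ran both ways, as GSTU25, ICDH and NQR above were higher in SNP and those that follow were lower. They were chosen after their values had been seen. In the sulfur list the single named gene, BGLU28, was no member and differed by 0.49 (limma, adjusted p = 0.876). MSRB9, which repairs oxidised methionine, had 7.23, 7.27 and 7.39 in SNP, 8.35, 8.48 and 8.59 in cPTIO and 7.86, 7.76 and 7.76 in control. Its 3 groups were tight and well apart. APS4, an ATP sulfurylase that starts sulfate assimilation, had 6.63, 6.18 and 6.42 in SNP, 7.58, 7.40 and 7.57 in cPTIO and 7.33, 7.20 and 7.32 in control. The APS4 step was -0.87 in SNP and 0.24 in cPTIO. AT1G60730, an aldo-keto reductase, was -0.89 in SNP relative to cPTIO, and AT3G05920, a heavy-metal-associated protein, was -1.08.

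Transport, wall and regulatory genes filled the rest of the named lower members described here. AT3G45700, a transporter of the nitrate and peptide family, differed by -0.93, while another family member, AT5G13400, was a higher member at 0.81. AT2G39430, a dirigent protein of the kind that places lignin, differed by -1.0, AT5G04970, a pectin methylesterase, by -0.67, and AT5G13500, an arabinosyltransferase of wall glycoproteins, by -0.60. The VQ-motif gene AT5G46780 differed by -1.18 and the ERF-type transcription factor AT1G44830 by -0.74. In AT5G04970 and AT1G44830 all 3 group means lay below every array median, so their differences describe the listed values only. AT2G30600 differed by -1.33 on the member set and by -1.38 on a second probe set of the same gene. That second set was not a member.

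Many members were dim. A difference against a group mean below every array median describes the listed values and is not shown to lie above background. The median level of the higher members was 6.48 in SNP, 5.45 in cPTIO and 6.03 in control, and that of the lower members was 4.79, 6.18 and 5.53. The lowest group mean was below every array median in 25 higher and 33 lower members. Control arrays were the tightest, with a median SD over the higher members of 0.16 in SNP, 0.19 in cPTIO and 0.08 in control. The same medians were 0.13, 0.21 and 0.11 over the lower members and 0.12, 0.17 and 0.13 over all probe sets. The rule prefers probe sets whose middle group is tight.

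Of 290 genes in 28 lists, 36 are named on the array, in 19 lists, and 2 of them were members, AT4G14090 and GSTU25. Between SNP and cPTIO limma called 4 of the 36 higher and 2 lower, and 2 and 2 of the 34 that were not members, against 1.68% and 1.59% of all sets. The 4 were AT4G14090, GSTU25, DFR and UF3GT. Those lower in SNP were COR47, a dehydrin of cold and drought responses, at -2.31 and NDB2, an alternative mitochondrial NADH dehydrogenase, at -0.54. In the blocked fit of only these groups AT4G14090 and DFR were called, and GSTU25, UF3GT, COR47 and NDB2 were not (limma, adjusted p = 0.0713, 0.07, 0.0867 and 0.101). With the block over all 9 arrays GSTU25, UF3GT and COR47 were called (limma, adjusted p = 0.0278, 0.0437 and 0.0363). AT4G14090 and DFR were called in it too, and NDB2 was not (limma, adjusted p = 0.0583). The median difference of the 36 was -0.02, as over all probe sets. The other 9 lists have no gene named on the array. None of the genes in the lists for NO synthesis and removal and for DELLA proteins, PIFs and gibberellin is named in the annotation used here.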

How the data were processed

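The authors deposited 1 log2 value per probe set for each of 9 Affymetrix arrays. RMA and limma appear in the submitters' processing notes without a version. RMA equalises the distributions of the arrays, which largely removes any shift common to most transcripts. Of 22810 probe sets, the 64 AFFX controls were left out. The other 22746 were fitted with limma 3.58.1 in R 4.3.3 (group as sole term, two-sided, Benjamini-Hochberg within each comparison). The order rule was applied in Python 3.11.15 with pandas 2.3.3. Figures were drawn with matplotlib 3.10.9, and the fit was tested on simulated data. The members and gene lists were chosen with earlier results of these data known. The rule for named genes took, per direction, the 12 widest differences, the 8 largest smaller steps, list members and the sets nearest the minimum. Further genes were chosen after their values were seen. The p-values cover only the spread among the arrays of a group, which may be technical, and 3 arrays per group limit the precision. Same-numbered arrays were checked for pairing by correlating their deviations from the group means. Between SNP and cPTIO the correlations were 0.257, 0.305 and 0.417, all above 0.1, which met the criterion for pairing, though the labels give no such pairing. The fit given throughout had no block. Blocked values stand beside some of the results they change. Against control, 5 of 6 were below 0.1. Alternatives were the minimum difference, centring, dim sets, cross-matching sets, array weights, an intensity trend, the replicate block and leaving out arrays.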

Additional observations from a re-analysis of the deposited data

Results flagged for a closer look

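The hybridisation spike-in BioC, which is added before hybridisation and is no plant transcript, averaged 8.53 ± 0.09 in SNP, 8.36 ± 0.51 in cPTIO and 6.32 ± 0.18 in control (SD, n = 3). The mean over the treated arrays was 2.12 above that of the control arrays. The other hybridisation spike-ins differed far less. BioB averaged 7.13 in SNP, 6.81 in cPTIO and 6.62 in control. In the same groups BioD averaged 10.19, 10.01 and 9.89, and cre averaged 12.24, 12.13 and 12.06. The ubiquitin control probe sets averaged 11.30 ± 0.02 in SNP, 11.37 ± 0.06 in cPTIO and 10.99 ± 0.03 in control (SD, n = 3), which put the treated arrays 0.34 above control. All these signals lie in control probe sets that the comparisons do not use, and none runs in the graded order. Their part in the members' steps from control was not tested.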

How the results depend on the processing

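The rule chose 91 higher and 84 lower members. A minimum of 1 log2 left 28 and 51, and leaving out the SNP and cPTIO arrays numbered 3 gave 290 and 277, since fewer arrays loosen the order. Leaving out 1 array gave 97 to 198 higher and 90 to 192 lower sets. Without any minimum, with median centring, or without dim or cross-matching sets, the counts stayed within 1.5 times. Median centring chose 87 and 90 sets, of which 66 and 75 were among the 91 and 84. Of the members, limma called 156 between SNP and cPTIO, 50 between SNP and control and 40 between cPTIO and control. Fits to only the 2 groups compared called 74 between SNP and cPTIO and 6 between cPTIO and control. Array weights gave 104 between SNP and control and 67 between cPTIO and control. With the replicate number as a block over all 9 arrays the calls were 149, 51 and 39. In an alternative added after seeing the data, the replicate block with only the SNP and cPTIO arrays gave 56. Leaving out 1 array gave 67 to 159, 23 to 68 and 1 to 51 calls. Between SNP and cPTIO the lowest counts were 67 and 75, when SNP replicates 2 and 1 were dropped, and 102 without cPTIO replicate 1. Between SNP and control they were 23 and 25 without SNP replicates 2 and 1, and 24, 24 and 30 without control replicates 1, 2 and 3. Between cPTIO and control they were 1, 11 and 24 without control replicates 2, 3 and 1, 12 without cPTIO replicate 1, and 19 and 21 without SNP replicates 2 and 1. The share of all probe sets called in each alternative is not given. A shift among the members therefore cannot be told from a shift over the whole array. Apart from fewer arrays, the cause of these shifts was not tested. Values near or below the array medians limit what the dim members show.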
